A study of Homo sapiens with 25 samples.

Results

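miR-221 and miR-222 are a pair of human microRNAs (miRNAs) made from neighbouring hairpins on the X chromosome. Their levels were followed in small RNA libraries of the A2780 line, which was derived from a human ovarian carcinoma. The members were chosen by name, with their levels in these libraries already known, as the unstarred rows of miR-221 and miR-222 and the precursor rows hsa-mir-221 and hsa-mir-222. That gives 2 of the 1410 rows of the mature table and 2 of the 934 rows of the precursor table. Because the choice was made with the values in view, the levels and differences of the pair are given as a description and carry no p-value. The starred rows are the lesser arms of the same hairpins and are described beside them.

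All 3 groups were A2780 cells with a lentivirus, 3 libraries each. The first group, called miR-450a cells here, carried a vector that overexpresses the primary transcript of miR-450a. The second, miR-450b cells, overexpressed that of miR-450b, and the third held the empty vector. The labels call the libraries biological replicates but do not say whether each came from its own transduction or from a clone, so the spread between them may be technical. By its title the study asks what miR-450a does in ovarian cancer. The 12 mRNA sequencing and 4 Argonaute PAR-CLIP samples were not analysed here. Levels are relative abundances within a library's miRNA reads, scaled to 1000000 (RPM). The files hold no counts, and the depth behind a value is unknown. A share in bulk RNA also cannot tell fewer copies per cell from fewer cells that express the miRNA.

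A miRNA is cut from a hairpin in a longer primary transcript, and 1 arm of the hairpin usually enters the Argonaute complex and guides it to mRNAs. miR-221 and miR-222 are processed from a common primary transcript and recognise many of the same mRNAs through a shared seed. They are known to repress the cell cycle inhibitors CDKN1B (p27) and CDKN1C (p57) and the receptor KIT, and they are high in many carcinomas, where they are mostly described as promoting proliferation.

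The mature sequences are shown because their shared 5′ end is what makes the pair a family. Capitals mark the seed, bases 2 to 8 from the 5′ end, and the sequences are those of RefSeq on GRCh38.p14.
hsa-miR-221-3p: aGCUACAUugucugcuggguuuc
hsa-miR-222-3p: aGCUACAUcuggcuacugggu
hsa-miR-222-5p: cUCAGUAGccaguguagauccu
The -3p sequences are those of the unstarred rows miR-221 and miR-222, as the dominant arm, and the -5p sequence is that of the starred arm. miR-221 (23 bases) and miR-222 (21 bases) share their first 8 bases. Their longest shared run after that has 6 bases and starts at base 15 of miR-221 and base 16 of miR-222. Among the 2370 human mature entries of the RefSeq table the seed GCUACAU occurred in these 2 only, so the pair is the whole seed family there. The -5p seed of miR-222 occurred in no other entry.

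The hairpins show where the arms lie. Both are 110 bases long and on the minus strand of the X chromosome in GRCh38.p14, MIR221 at chrX:45746157-45746266 and MIR222 at chrX:45747015-45747124. Capitals mark the -3p arm. The deposited tables name no genome build, so these positions are those of RefSeq.
MIR221 hairpin: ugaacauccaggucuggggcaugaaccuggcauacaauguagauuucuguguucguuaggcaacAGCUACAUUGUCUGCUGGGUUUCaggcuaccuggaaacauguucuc
MIR222 hairpin: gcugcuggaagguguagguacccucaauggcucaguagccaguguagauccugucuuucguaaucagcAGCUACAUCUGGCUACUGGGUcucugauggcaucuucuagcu
Each precursor row of the deposited table was the sum of its 2 arms in the mature table. This held for 18 of 18 values within 0.001 RPM, so the precursor rows hold no reads beyond those of the arms.

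Both hairpins lie within the span of the long non-coding RNA gene MIR222HG. Its promoter is shown because the pair moved together across the libraries. It holds 250 bases before and 50 after the start of the gene (chrX:45770218-45770517, minus strand, GRCh38.p14), and capitals mark matches to the motifs CCAAT (read as ATTGG on the other strand) and TATAA.
MIR222HG promoter: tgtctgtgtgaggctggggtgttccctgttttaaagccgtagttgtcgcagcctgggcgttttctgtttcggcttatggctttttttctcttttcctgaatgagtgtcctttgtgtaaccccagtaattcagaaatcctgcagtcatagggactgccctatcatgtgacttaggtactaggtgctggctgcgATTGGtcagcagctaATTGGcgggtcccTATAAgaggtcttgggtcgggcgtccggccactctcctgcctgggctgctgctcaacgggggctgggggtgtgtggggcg
Motifs were searched on both strands. CCAAT matched at bases 193 and 208, and 34.6% of the 35116 promoters of the table hold it. TATAA matched once, and 20.4% of promoters hold it. The AP-1 motif TGANTCA and the E-box CACGTG, which 7.71% and 7.26% of promoters hold, had no match in this window. None of the matches overlapped. Small RNA reads do not measure this promoter, and the matches are letters only.

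The libraries of miR-450a cells stood apart from the other 6. The summed level of 9 rows known from stromal and vascular cells (the arms of miR-214, miR-199b and miR-199a with miR-145, miR-143 and miR-126, 9 of 9 tested, none at 0 in every library) was 773 to 2076 RPM in miR-450a cells, 206573 to 251824 RPM in miR-450b cells and 181097 to 258997 RPM in empty vector cells. The 9 rows did not all follow this sum. miR-126 averaged 840, 654 and 970 RPM in miR-450a, miR-450b and empty vector cells. miR-143 averaged 31.0, 698 and 3197 RPM and miR-145 averaged 4.98, 41.9 and 480 RPM, so both were lower in miR-450b cells as well. A row of the polyomavirus SV40, sv40-miR-S1-3p, stood at 47.8 to 73.4 RPM in miR-450a cells, at 0 to 0.501 RPM in miR-450b cells and at 0 to 0.267 RPM in empty vector cells. For the 7 epithelial miRNAs the summed level was 284 to 378 RPM, 88.9 to 153 RPM and 72.1 to 99.1 RPM in the same order of groups, with 2 of 7 rows tested and none at 0 in every library. miR-200c made up most of this sum, averaging 286, 122 and 62.0 RPM. miR-205 was instead highest in empty vector cells, averaging 0.795, 0.118 and 5.34 RPM. For blood cell miRNAs, of which 5 of 6 had a row, the summed level was 199.1 to 361 RPM, 140 to 319 RPM and 161 to 327 RPM, with 3 of 6 rows tested and none at 0 in every library. No miRNA defines A2780, so the labelled line could not be checked here. The part of these differences in the values of miR-221 and miR-222 was not tested. Means of miR-450b and empty vector cells do not use the miR-450a libraries. The limma fit below does use them for the row filter, SE and adjusted p of that comparison.

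miR-221 was among the abundant miRNAs of these cells. It stood at 30319, 21494 and 25208 RPM in miR-450a cells, at 1947, 1556 and 1093 RPM in miR-450b cells and at 6793, 11491 and 9240.0 RPM in empty vector cells. The 3 groups did not overlap, with miR-450a cells highest and miR-450b cells lowest. The means were 25674 ± 4431, 1532 ± 427 and 9175 ± 2349 RPM in that order (SD, n = 3 each).

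miR-222 stood at 11562, 9283 and 10123 RPM in miR-450a cells, at 724, 549 and 343 RPM in miR-450b cells and at 3325, 4701 and 3129 RPM in empty vector cells. Its groups were ordered as those of miR-221 and did not overlap either. The means were 10323 ± 1153, 538 ± 191 and 3718 ± 857 RPM (SD, n = 3 each). Together the pair held 3.08% to 4.19% of all miRNA reads in miR-450a cells, 0.144% to 0.267% in miR-450b cells and 1.01% to 1.62% in empty vector cells.

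By rank within a library, miR-221 was 5th to 12th in miR-450a cells, 70th to 88th in miR-450b cells and 23rd to 34th in empty vector cells. miR-222 was 20th to 21st, 98th to 133rd and 45th to 55th in the same groups. miR-221 lay above miR-222 in each of the 9 libraries, and both lay above the starred arms. By mean over the 9 libraries, miR-221 (12127 RPM) stood between miR-99b (12911 RPM) and miR-218 (11615 RPM), and miR-222 (4860 RPM) between miR-423-3p (4874 RPM) and miR-450a (4686 RPM). The gaps to these neighbours are smaller than the SD of the pair within a group, except those of miR-221 when set against its SD in miR-450b cells. The order holds for the pooled means only. miR-450a, raised by its own vector, averaged 13262 RPM in miR-450a cells, 406 RPM in miR-450b cells and 389 RPM in empty vector cells.

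**Figure D1:**
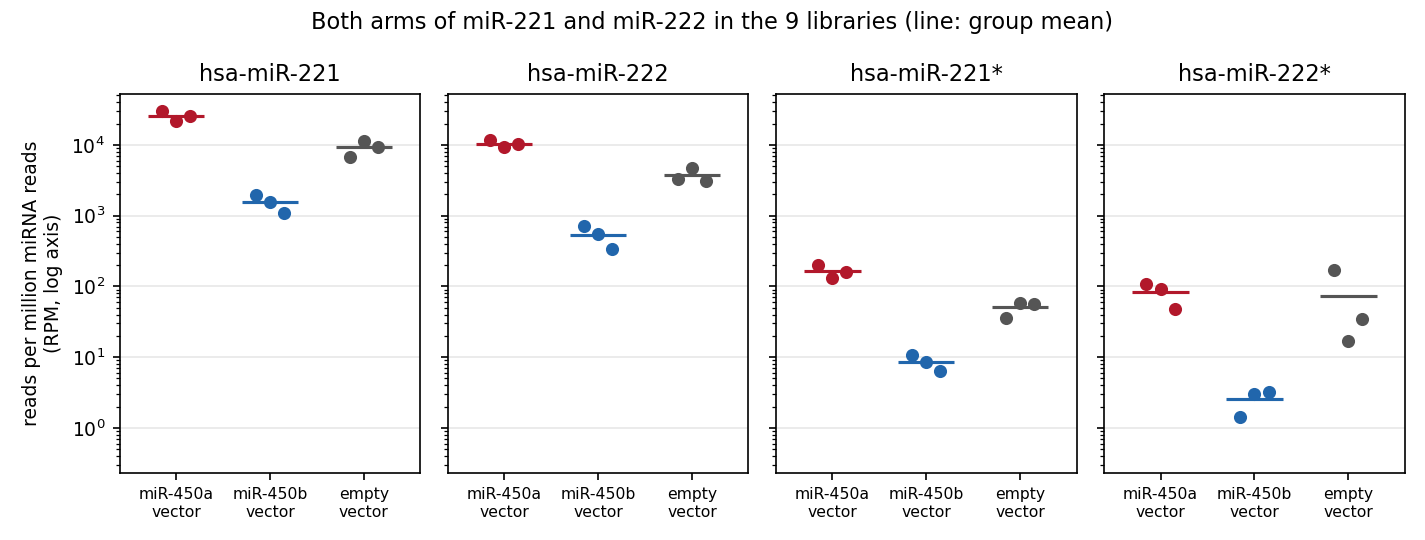
Level of each arm in RPM (log axis) by vector, with a point for each library and a line at the group mean. The 3 groups separate for miR-221, miR-222 and miR-221*, while for miR-222* an empty vector library (171 RPM) lies above all 3 miR-450a libraries.

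Against empty vector cells, the mean of miR-221 was 2.80-fold higher and that of miR-222 2.78-fold higher in miR-450a cells. On the scale of log2(RPM + 10), which was used for the fit across all rows, the differences were 1.50 ± 0.31 for miR-221 and 1.49 ± 0.32 for miR-222 (SE, limma fit of all 9 libraries). In that fit 2 of the 2 members passed the threshold, an adjusted p of 0.05 over all rows tested, and both lay wholly above empty vector cells. Of the 406 rows tested (mean of at least 10 RPM), 36.9% passed as higher, 18.5% passed as lower, and 37.7% lay wholly above the empty vector libraries. The pair was chosen with this difference known, so its calls add nothing to its values. Its differences were the 79th and 81st highest of the 406.

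Scaling mattered to the size of this difference. With libraries scaled by median of ratios, the pair was 2.05-fold and 2.03-fold higher in miR-450a cells than in empty vector cells, and the log2 differences were 1.06 and 1.04. The same scaling moved the median log2 difference of all rows to 0.05, against 0.44 as deposited, and the share of calls that were higher to 52.0%, against 66.7%. Taking the reads of the vectors' miRNAs and of miR-199a, miR-199b and miR-214 out of the totals moved that share to 56.5%.

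In miR-450b cells the pair was lower than in empty vector cells. The mean of miR-221 was 5.99-fold lower and that of miR-222 6.91-fold lower. The log2 differences were -2.58 ± 0.31 for miR-221 and -2.81 ± 0.32 for miR-222 (SE). Again 2 of the 2 members passed the threshold and lay wholly below empty vector cells, in a comparison where 10.1% of rows passed as lower, 4.43% passed as higher and 21.2% lay wholly below. They were the 12th and 8th lowest differences of the 406 rows. Median-of-ratios scaling gave means 5.32-fold and 6.11-fold lower, with 40% of all calls higher, against 30.5% as deposited, and a median of all rows of -0.05, against -0.16.

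Between the vectors, the mean of miR-221 was 16.8-fold higher and that of miR-222 19.2-fold higher in miR-450a cells than in miR-450b cells. The log2 differences were 4.08 ± 0.31 and 4.29 ± 0.32 (SE), the 20th and 17th highest of 406. Both members passed, as did 41.9% of rows as higher, with 18.5% passing as lower and 46.6% lying wholly above miR-450b cells. Under median-of-ratios scaling the folds were 10.9 and 12.4, the median of all rows was 0.13, against 0.62 as deposited, and 48.7% of calls were higher, against 69.4%, or 57.3% with the reads of those miRNAs taken out. The 3 comparisons share libraries, so they are not separate evidence of each other.

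**Figure D2:**
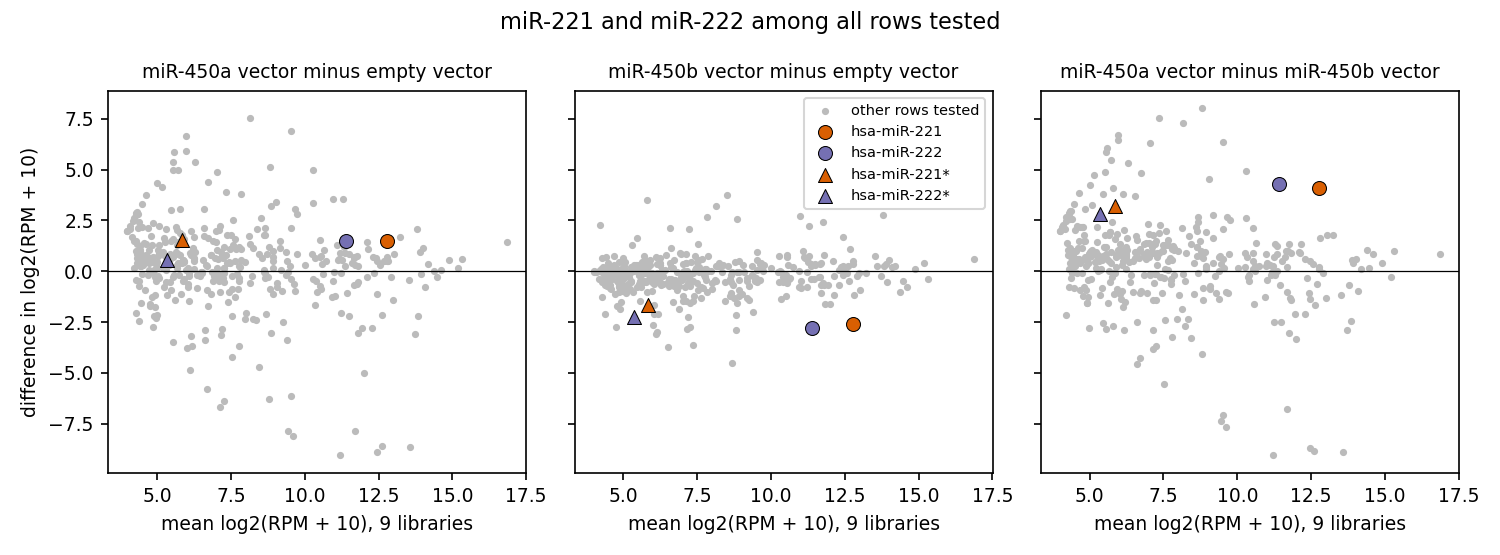
Difference in log2(RPM + 10) against the mean log2(RPM + 10) over 9 libraries for the 406 rows tested, in each of the 3 comparisons. Circles mark miR-221 and miR-222 and triangles their starred arms. miR-221 and miR-222 lie at 1.50 and 1.49 for miR-450a cells against empty vector cells, at -2.58 and -2.81 for miR-450b cells against empty vector cells, and at 4.08 and 4.29 between the vectors.

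The precursor rows gave the same picture, being sums of the arms. hsa-mir-221 ranged from 21624 to 30519.9 RPM in miR-450a cells, from 1099.7 to 1958 RPM in miR-450b cells and from 6829 to 11549.6 RPM in empty vector cells. hsa-mir-222 ranged from 9376 to 11670.2 RPM, from 346 to 725 RPM and from 3163 to 4718 RPM in the same groups. The log2 differences for hsa-mir-221 and hsa-mir-222 were 1.50 and 1.47 for miR-450a cells against empty vector cells, and -2.58 and -2.83 for miR-450b cells against empty vector cells.

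The starred arms are the strands that are mostly discarded. miR-221* stood at 201, 130.04 and 157 RPM in miR-450a cells, at 10.9, 8.66 and 6.36 RPM in miR-450b cells and at 36.2, 59.1 and 56.5 RPM in empty vector cells. Its groups were ordered as those of miR-221 and did not overlap. Against empty vector cells, the mean of miR-221* was 3.21-fold higher in miR-450a cells and 5.87-fold lower in miR-450b cells. The log2 differences from empty vector cells were 1.51 ± 0.25 in miR-450a cells and -1.69 ± 0.25 in miR-450b cells (SE). The 10 RPM added before the log2 understates falls to levels this low, here and for miR-222*.

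miR-222* stood at 108, 93.0 and 48.5 RPM in miR-450a cells, at 1.42, 3.03 and 3.22 RPM in miR-450b cells and at 171, 17.2 and 34.1 RPM in empty vector cells. The miR-450b libraries lay below all others, while the miR-450a and empty vector libraries overlapped. Empty vector replicate 1 was the highest of the 9 libraries for this arm, although it was not the highest empty vector library for miR-222. The log2 differences from empty vector cells were 0.57 ± 0.56 in miR-450a cells and -2.26 ± 0.56 in miR-450b cells (SE). Without empty vector replicate 1 they were 1.37 and -1.47, and without empty vector replicate 2 the first was -0.0003.

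The shares within the locus do not depend on how a library is scaled. They were not the rule of choice, but they are computed from levels already known when the pair was chosen. Their tests are therefore not independent of that choice. The shares ask whether the arms and the hairpins moved in proportion. miR-222 made up 27.6%, 30.2% and 28.7% of miR-221 plus miR-222 in miR-450a cells. In miR-450b cells it made up 27.1%, 26.1% and 23.9%, and in empty vector cells 32.9%, 29.0% and 25.3%. The empty vector libraries spanned the range of all but 1 of the other 6.

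The means were 28.8 ± 1.28% in miR-450a cells, 25.7 ± 1.65% in miR-450b cells and 29.1 ± 3.78% in empty vector cells (SD, n = 3 each). The difference from empty vector cells was -0.258 percentage points in miR-450a cells (two-sided exact permutation p = 0.9, adjusted p = 0.9 over 12 tests of shares). It was -3.39 points in miR-450b cells (exact permutation p = 0.3, adjusted p = 0.6), or -1.50 points without empty vector replicate 1 and -5.28 points without empty vector replicate 3. Between the vectors, all 3 miR-450a libraries lay above all 3 miR-450b libraries, by 3.13 points on average (exact permutation p = 0.1, the smallest that 3 against 3 allows, adjusted p = 0.4). The same share over the precursor rows was 28.8 ± 1.31%, 25.7 ± 1.59% and 29.4 ± 4.25% with the miR-450a, miR-450b and empty vectors. Its differences from empty vector cells were -0.573 points in miR-450a cells (exact permutation p = 0.8, adjusted p = 0.873) and -3.75 points in miR-450b cells (exact permutation p = 0.3, adjusted p = 0.6), or -1.53 and -5.76 points without those same libraries. None of the 12 tests passed an adjusted p of 0.05, and none could, since the smallest raw p was 0.1.

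The starred share was small for both hairpins. miR-221* made up 0.657%, 0.601% and 0.620% of the 2 arms in miR-450a cells, 0.555%, 0.553% and 0.579% in miR-450b cells and 0.530%, 0.512% and 0.608% in empty vector cells. The differences from empty vector cells were 0.0761 points in miR-450a cells (exact permutation p = 0.2, adjusted p = 0.6) and 0.0122 points in miR-450b cells (exact permutation p = 0.8, adjusted p = 0.873). The miR-450a libraries lay above the miR-450b libraries by 0.0639 points on average (exact permutation p = 0.1, adjusted p = 0.4).

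For miR-222 the starred arm made up 0.927%, 0.992% and 0.477% in miR-450a cells, 0.195%, 0.549% and 0.931% in miR-450b cells and 4.88%, 0.364% and 1.08% in empty vector cells. Empty vector replicate 1 again stood apart. The differences from empty vector cells were -1.31 points in miR-450a cells (exact permutation p = 0.6, adjusted p = 0.8) and -1.55 points in miR-450b cells (exact permutation p = 0.4, adjusted p = 0.686). Without empty vector replicate 1 the first of these was 0.077 points, in the other direction, and the second was -0.163 points.

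**Figure D3:**
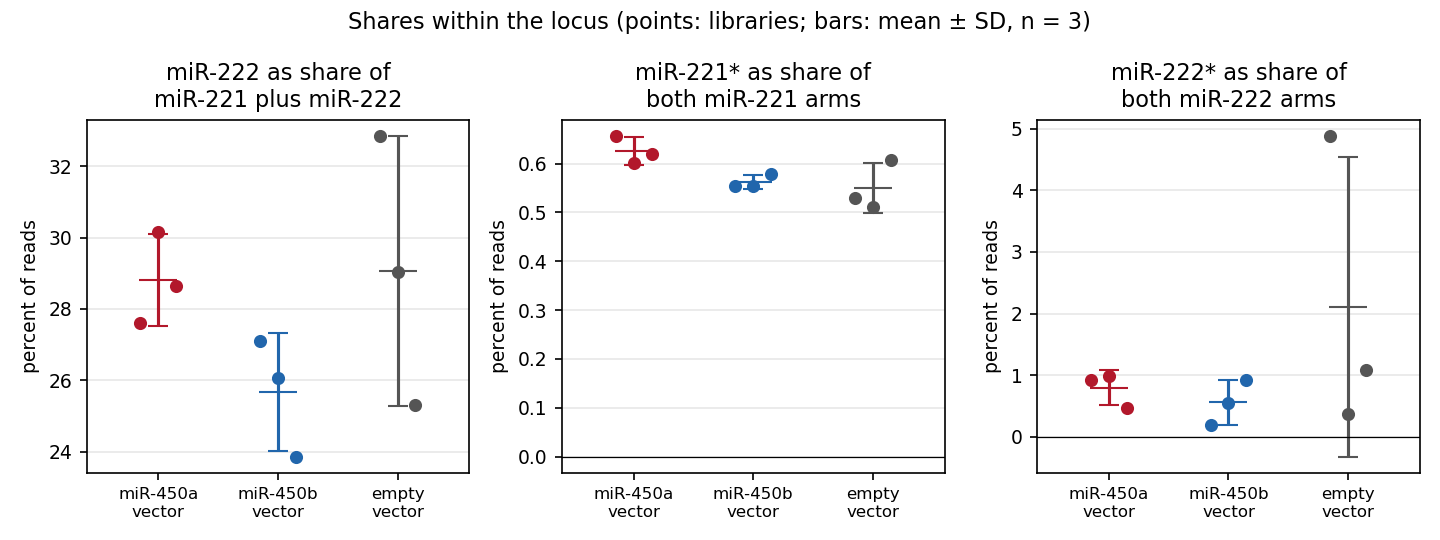
Percent of reads held by miR-222 among the 2 unstarred arms and by each starred arm among the 2 arms of its hairpin, with a point for each library and the mean ± SD of each group (n = 3). The first axis does not start at 0. Groups lie within a few points of each other for miR-222, and the bar of the miR-222* share in empty vector cells spans more than the others, with 1 library at 4.88%.

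Within a group, the pair also moved together. In miR-450a cells, replicate 1 was the highest library and replicate 2 the lowest for both miRNAs. In miR-450b cells, replicate 1 was the highest and replicate 3 the lowest for both. In empty vector cells, replicate 2 was the highest for both, while replicate 1 was the lowest for miR-221 and replicate 3 for miR-222. The coefficient of variation was 17.3% for miR-221 and 11.2% for miR-222 in miR-450a cells, 27.9% and 35.4% in miR-450b cells, and 25.6% and 23.0% in empty vector cells. Over the 9 libraries, Pearson's r between miR-221 and miR-222 was 0.996 on the scale of log2(RPM + 10), against 0.990 between miR-221 and miR-221* and 0.815 between miR-222 and miR-222*. These points fall into 3 groups and each pair of values shares a library, so r is a description.

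Other miRNAs with the same pattern were ranked by Pearson's r to the mean log2(RPM + 10) of the pair, over 9 libraries and 399 other human rows. The 5 most alike were miR-629 (r = 0.97), miR-582* (r = 0.96), miR-502 (r = 0.93), miR-339-5p (r = 0.93) and miR-148a (r = 0.93). Over the 6 libraries of the miR-450b and empty vectors, the r of these 5 was 0.84 to 0.97. They were chosen for following the pair across these libraries, so their levels and differences are a description, with no test.

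miR-629 stood at 2594, 1730.0 and 2642 RPM in miR-450a cells, at 3.90, 0.541 and 2.65 RPM in miR-450b cells and at 108, 154 and 177 RPM in empty vector cells. Its log2 differences from empty vector cells were 3.90 ± 0.29 in miR-450a cells and -3.64 ± 0.29 in miR-450b cells (SE). miR-148a, known to repress the DNA methyltransferase DNMT1, averaged 9975 ± 3786 RPM in miR-450a cells, 26.6 ± 7.80 RPM in miR-450b cells and 265 ± 81.8 RPM in empty vector cells. Its log2 differences from empty vector cells were 5.14 ± 0.36 in miR-450a cells and -2.89 ± 0.36 in miR-450b cells (SE).

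The other 3 differed less between miR-450a and empty vector cells. miR-502, from a miRNA cluster on the same chromosome arm as the pair, averaged 186 ± 15.4 RPM, 95.3 ± 6.66 RPM and 169 ± 32.9 RPM with the miR-450a, miR-450b and empty vectors. miR-339-5p averaged 5610 ± 384 RPM, 2263 ± 404 RPM and 3316 ± 302 RPM. miR-582* averaged 40.6 ± 4.90 RPM, 1.26 ± 0.481 RPM and 26.7 ± 5.35 RPM. Their log2 differences in miR-450a cells against empty vector cells were 0.15 for miR-502, 0.76 for miR-339-5p and 0.47 for miR-582*, and with median-of-ratios scaling they were -0.27, with the sign turned, 0.31 and 0.13.

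The lowest r were those of let-7c* (-0.97), miR-450b* (-0.91), let-7c (-0.89), miR-675 (-0.88) and miR-675* (-0.88), again a description with no test. miR-675, which is cut from the imprinted non-coding RNA H19, averaged 5.66 RPM in miR-450a cells, 356 ± 49.8 RPM in miR-450b cells and 157 ± 35.7 RPM in empty vector cells. let-7c, of the growth-restraining let-7 family, averaged 1506 ± 425 RPM, 12636 ± 3819 RPM and 2383 ± 876 RPM in the same groups. Its miR-450a and empty vector libraries overlapped (log2 difference -0.64). miR-450b* is the lesser arm of the miRNA of the miR-450b vector. It averaged 1.70 RPM in miR-450a cells, 43.2 RPM in miR-450b cells and 0.644 RPM in empty vector cells. It thus met the filter through the miR-450b libraries alone. Between miR-450a and empty vector cells it overlapped, with a log2 difference of 0.13 that was not opposite to the pair.

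**Figure D4:**
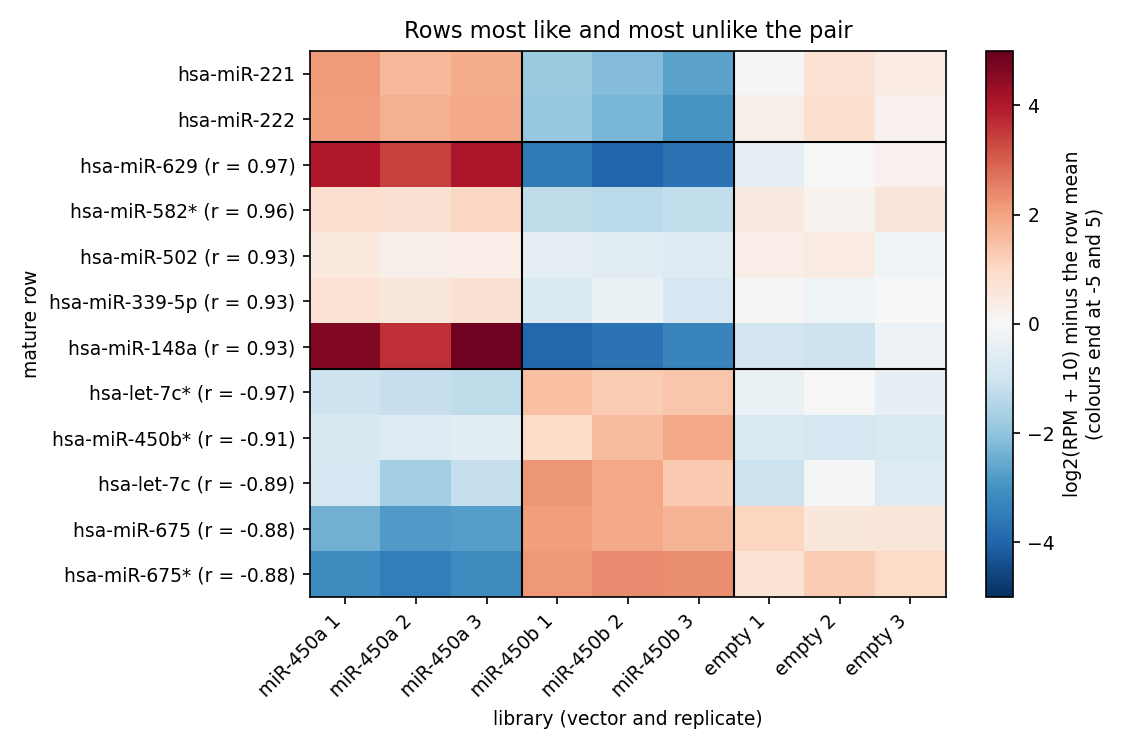
log2(RPM + 10) minus the mean of the row in the 9 libraries (columns, by vector and replicate) for the pair, the 5 human rows with the highest and the 5 with the lowest Pearson's r to it. The pair and its 5 most alike rows are red in miR-450a cells and blue in miR-450b cells, and miR-629 (3.90) and miR-148a (5.14) differ more between miR-450a and empty vector cells than the pair (1.50 and 1.49).

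On the X chromosome, the 4 miRNA genes next to the pair on each side in the GRCh38.p14 gene table were compared with it. Only MIR532, MIR188 and MIR500A had rows in the mature table, 5 in all, and all 5 were tested. In the limma fit miR-500a rose in miR-450a cells, at 488 RPM against 219 RPM in empty vector cells (1.13 ± 0.32, adjusted p = 0.0108), a call that median-of-ratios scaling removed (0.69, adjusted p = 0.104). The other 4 did not pass, at log2 differences of -0.48 to 0.65. In this comparison 36.9% of all rows passed as higher and 18.5% as lower. In miR-450b cells 0 of the 5 passed, at -1.44 (miR-188, adjusted p = 0.144) to 0.24 (miR-500a, adjusted p = 0.636). Of all rows, 4.43% passed there as higher and 10.1% as lower. miR-532-3p did pass as lower without empty vector replicate 3 (-1.14, limma, adjusted p = 0.0353), and miR-188 was at -0.85 without empty vector replicate 1. The 2 rows of MIR532 averaged 1770.1 and 129 RPM in miR-450a cells, 1092 and 76.0 RPM in miR-450b cells and 1149 and 141 RPM in empty vector cells.

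CDK inhibitors, the best known targets of the pair, are also targets of the miR-17 seed family (CDKN1A) and the miR-25 seed family (CDKN1C). A list of 10 members, which need not be complete, was taken from these families and all 10 were tested. Of the 10, 2 rose and 2 fell in miR-450a cells, where 36.9% of all rows passed as higher and 18.5% as lower. The median log2 difference of the 10 was 0.12, against 0.44 over all rows. miR-92a averaged 203322 ± 35949 RPM in miR-450a cells and 76473 ± 21395 RPM in empty vector cells, and miR-25 averaged 25152 ± 5074 RPM and 11441 ± 2703 RPM. miR-20b and miR-363, neighbours in a cluster on the long arm of the X chromosome, fell to 159 and 221.8 RPM in miR-450a cells, against 1333 and 2902 RPM in empty vector cells. With median-of-ratios scaling the call of miR-25 was lost (0.70, adjusted p = 0.0667) and miR-106a passed as lower (-1.16, adjusted p = 0.0175).

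In miR-450b cells, 0 of the 10 rose and 3 fell, where 4.43% of all rows passed as higher and 10.1% as lower, with a median of -0.66, against -0.16 over all rows. miR-20b fell to 449 RPM, against 1333 RPM in empty vector cells (-1.59 ± 0.30, limma, adjusted p = 0.00338). miR-106a and miR-363 changed by -1.24 and -2.01 (limma, adjusted p = 0.0420 and 0.0406). Both calls were lost without miR-450b replicate 1 (-1.09 and -1.90), miR-450b replicate 3 (-1.21 and -1.68), empty vector replicate 1 (-0.97 and -1.93), empty vector replicate 2 (-1.29 and -1.44) or miR-450a replicate 3 (-1.24 and -2.01), and with median-of-ratios scaling (-1.08 and -1.86). That of miR-106a was lost as well without miR-450b replicate 2 (-1.41), and that of miR-363 without miR-450a replicate 1 or 2 (-2.01 each). miR-17, the most abundant of the CDKN1A group, averaged 61931 ± 22840 RPM, 29838 ± 6445 RPM and 39949 ± 11403 RPM with the miR-450a, miR-450b and empty vectors and passed in neither comparison with empty vector cells (limma, adjusted p = 0.128 and 0.432), although without empty vector replicate 1 it passed as higher in miR-450a cells (0.83, adjusted p = 0.0494). Set against miR-450b cells, miR-450a cells had 2 of the 10 higher and 1 lower (median 0.56, against 0.62 over all rows), where 41.9% and 18.5% of all rows passed. The 2 were miR-92a (0.83) and miR-17 (1.01), and the 1 was miR-20b (-1.43). With median-of-ratios scaling 0 were higher and 2 lower, since miR-92a and miR-17 did not pass (0.22 and 0.40) and miR-363 passed as lower (-1.93, limma, adjusted p = 0.0157). miR-363 was at -1.35 as deposited (limma, adjusted p = 0.0658), and it passed as well without miR-450b replicate 3 (-1.68) or empty vector replicate 2 or 3 (-1.35 each). That of miR-92a was lost without miR-450a replicate 1 (0.75) or 3 (0.76) or miR-450b replicate 2 (0.84) or 3 (0.66), and that of miR-17 without miR-450a replicate 2 (0.73) or miR-450b replicate 1 (0.90).

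The transcription factors AP-1 and NF-κB are known inducers of the pair and of miR-21, miR-146a, miR-155 and miR-9. miR-155 had a mean under 10 RPM and was not tested. In miR-450a cells 1 of the 3 tested rose and 1 fell, where 36.9% of all rows passed as higher and 18.5% as lower (median 0.35, against 0.44 over all rows). miR-9 averaged 3315 ± 690 RPM, against 307 ± 100.7 RPM in empty vector cells. miR-21 fell to 5087 ± 1368 RPM, against 24295 ± 9985 RPM. In miR-450b cells 0 of 3 rose and 1 fell, where 4.43% of all rows passed as higher and 10.1% as lower (median -0.31, against -0.16 over all rows). There miR-9 averaged 136 ± 40.2 RPM (-1.11 ± 0.32, limma, adjusted p = 0.0395), a call lost with median-of-ratios scaling (-0.96, adjusted p = 0.0715). It was lost as well without miR-450a replicate 1 (-1.11), miR-450b replicate 1 (-1.02) or 2 (-0.99), or empty vector replicate 2 (-1.19) or 3 (-0.87). miR-146a passed in neither comparison with empty vector cells (limma, adjusted p = 0.354 and 0.535). Between the vectors miR-9 was higher and miR-21 lower in miR-450a cells (4.53 and -2.47). There 41.9% of all rows passed as higher and 18.5% as lower. The median of all 3 tested was 0.67, against 0.62 over all rows. miR-146a, at 0.67, did not pass (limma, adjusted p = 0.0828). It did pass with only the compared groups fitted (adjusted p = 0.0353) and without empty vector replicate 1 or 3 (adjusted p = 0.0460 and 0.0420).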

How the data were processed

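Small RNA was sequenced in 9 A2780 libraries. RNA was isolated with TRIzol and sequenced as single reads on an Illumina instrument, per the labels' protocols. The authors deposited a fraction for each mature miRNA and each precursor, its part of a library's miRNA reads, and columns summed to 1. TopHat and Cuffdiff are named, with no role or version, per the submitters' processing notes, and for these fractions the aligner and annotation are not stated in the sources used here. Depth is unknown, so no counting interval or detection limit was computed.

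Fractions were multiplied by 1000000 (RPM) and analysed as log2(RPM + 10), a scale that understates changes of low miRNAs. Those averaging 10 RPM or more (406 mature, 284 precursor) entered limma 3.58.1 with an intensity trend in R 4.3.3, fitted to all 9 libraries, with Benjamini-Hochberg adjustment over every tested row and 0.05 as threshold. The code was tested on simulated data. Shares were compared with two-sided exact permutation tests (scipy 1.17.1) adjusted over 12 tests. The rule for named miRNAs took both arms and precursors of the pair, the 5 most and 5 least correlated human rows, the 4 nearest miRNA genes on each side, rows next in abundance and tested list members. Members and lists were chosen with earlier results of these data known. Alternatives changed the pseudocount (1 or 100 RPM), the filter (none, or 100 RPM), the scaling (median of ratios, or without the reads of the vectors' miRNAs, miR-199a, miR-199b and miR-214) and the model (untrended limma, 2 groups per fit, a replicate block), or dropped 1 library in turn. Correlations over 6 libraries were added after seeing the data.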

Additional observations from a re-analysis of the deposited data

Results flagged for a closer look

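Viral rows are no part of the pair or its lists, but 3 of them averaged 10 RPM or more and were fitted among the 406. Their fitted differences are not given here. For 2 of these 3, all 3 miR-450a libraries lay above the empty vector libraries, as held for 37.7% of the 406 rows. Both of these rows reached the filter only with the miR-450a libraries counted, so this count is in part set by the filter. sv40-miR-S1-3p averaged 63.8 ± 13.95 RPM in miR-450a cells, 0.167 ± 0.289 RPM in miR-450b cells and 0.0889 ± 0.154 RPM in empty vector cells (SD, n = 3 each). hvt-miR-H14*, a row of the herpesvirus of turkeys that has been described as a homologue of miR-221, averaged 45.9 ± 9.83 RPM in miR-450a cells, 2.32 ± 0.867 RPM in miR-450b cells and 17.4 ± 3.23 RPM in empty vector cells (SD, n = 3 each). The third row, hiv1-miR-TAR-3p, averaged 274 ± 118 RPM, 189 ± 111 RPM and 210.3 ± 8.14 RPM with the miR-450a, miR-450b and empty vectors.

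hvt-miR-H14* followed miR-221 from library to library. Its level was 0.188%, 0.178% and 0.168% of that of miR-221 in miR-450a cells, 0.145%, 0.181% and 0.121% in miR-450b cells and 0.202%, 0.173% and 0.200% in empty vector cells. Pearson's r to the mean log2(RPM + 10) of the pair was 0.98 over 9 libraries, against 0.97 for the most alike human row. The same r was 0.76 for sv40-miR-S1-3p and 0.36 for hiv1-miR-TAR-3p. This row was singled out after its values were seen, and whether its reads came from miR-221 was not tested.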

How the results depend on the processing

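The log2 differences of miR-221 and miR-222 kept their direction in all 3 comparisons under each of the 18 alternatives run. Both passed the threshold each time. The pair was chosen with these differences known and the alternatives reuse the same libraries, so these calls are a description. With median-of-ratios scaling the difference between the miR-450a and empty vectors was 1.06 for miR-221 and 1.04 for miR-222, and that between the vectors was 3.48 and 3.69, each shifted by more than 1 SD between replicates. Under that scaling hsa-mir-221 and hsa-mir-222 differed by 0.91 and 0.88 between the miR-450a and empty vectors and by 3.28 and 3.50 between the vectors, and miR-221* by 1.10 and 2.73. A pseudocount of 100 RPM gave miR-221* 0.80 for the miR-450a vector, miR-221* and miR-222* -0.47 and -0.66 for the miR-450b vector, and 1.27 and 0.82 between the vectors. One of 1 RPM gave -2.42 and -3.79 for the miR-450b vector, and 4.09 and 4.53 between the vectors. With 1 library left out, the differences were 1.30 to 1.68 and 1.38 to 1.67 for the miR-450a vector, -2.78 to -2.36 and -3.05 to -2.52 for the miR-450b vector, and 3.86 to 4.27 and 4.01 to 4.54 between the vectors (miR-221 and miR-222 in turn). Only 241 mature rows and 206 precursors have a mean of at least 100 RPM, and there 137, 38 and 140 mature rows were called for the miR-450a vector, the miR-450b vector and between the vectors, against 225, 59 and 245, with 125 precursors between the vectors, against 190. The share of miR-222 in the pair between the miR-450a and empty vectors was -0.258 points and ranged over -2.14 to 1.64 with 1 library left out, turning positive without miR-450a vector replicate 1 (0.342) or empty vector replicate 1 (1.64). On precursors it ranged over -2.59 to 1.65 and turned positive in the same 2 cases (0.0176 and 1.65). The miR-222* share ranged over -2.18 to 0.077, positive without empty vector replicate 1, and the miR-221* share between the miR-450b and empty vectors over -0.007 to 0.0412, negative without empty vector replicate 2. The r of deviations between same-numbered libraries was -0.507 to 0.641, with both signs in each comparison with the empty vector. Between the miR-450a and miR-450b vectors it was 0.641, 0.481 and 0.030, against -0.536 to 0.231 for libraries of different number. Whether a shared number marks a shared batch is unknown. The replicate block called 230, 58 and 251 mature rows. Under it miR-106a did not pass between the miR-450b and empty vectors (-1.24, limma, adjusted p = 0.0566), nor miR-92a between the vectors (0.83, adjusted p = 0.0595), while miR-363 passed as lower there (-1.35, adjusted p = 0.0131). The replicate block left the difference of miR-221 from the empty vector at 1.50 with the miR-450a vector. The read depth is unknown, which limits what can be said of the low starred arms with the miR-450b vector.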
